A study of Mus musculus with 9 samples.

Results

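The uterus of adult mice dosed with tamoxifen at birth was compared with that of control mice. Its members were 6 of the 9 RNA-seq libraries of the study, 3 control and 3 tamoxifen, chosen by their group labels, and every gene in the count table entered. All were uteri of female mice at 13 weeks of age, and the design gives 3 mice a group, so 1 a library. Tamoxifen mice received 1 mg/kg of tamoxifen on days 1 to 5 of life in a mixture of peanut oil, lecithin and condensed milk. Control pups were given the mixture alone, a treatment labelled vesicle and taken to mean vehicle. From 10 weeks of age both groups were injected for 3 weeks with the solvent used for primidone. The 3 remaining libraries, from mice that received tamoxifen and then primidone, entered the fit but were not compared. They took part in the low-count filter, the library scaling and the estimate of each gene's spread. With the 6 libraries alone 14887 genes were tested, against 15186 with all 9. Strain, estrous stage and the hour of collection were not given in the sources used here.

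Tamoxifen binds estrogen receptors and, in the uterus of rodents, acts largely as an estrogen. Exposure of newborn mice, at the age when the glands and muscle layers of the uterus form, is used to model adenomyosis, in which endometrial glands and stroma lie within the myometrium. The uterus is a lining epithelium with glands, a stroma beneath it, and layers of smooth muscle, with immune cells whose number and kind vary with the cycle. RNA of the whole organ mixes all of these, so fewer cells of a type and less RNA per cell cannot be told apart.

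The 6 libraries held between 36393120 and 39958443 counts, and levels are given as CPM, a gene's count scaled to a common library total and corrected for library composition. On the first principal component of these libraries (40.2% of the variance) the controls lay between -33.67 and -32.23 and the tamoxifen libraries between 31.41 and 34.56. On the second (21% of the variance) tamoxifen 2 stood apart at -44.62, against -14.02 to 27.25 for the others. The labelled tissue was present in every library. Epithelial markers summed to between 7320 and 7820 CPM in controls and 7430 and 7860 CPM in tamoxifen libraries, and smooth muscle markers to 11800 CPM or more in controls and 10000 CPM or more in tamoxifen libraries. The most counted single gene was Clca1, a secreted protein of mucous epithelia, in the controls and C3, the central complement component, in the tamoxifen libraries, at under 3% of counts each. Whether strand was used in counting was not stated, so antisense and overlapping genes cannot be told apart, and genes with near-identical copies (the Klra, Sprr2, Serpina1, Mup, Mcpt and hemoglobin families) are uncertain.

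Of 15186 genes tested, 87 rose and 146 fell at an adjusted p under 0.05, with edgeR's quasi-likelihood test and Benjamini-Hochberg adjustment (1.53% of the genes tested, 0.573% higher and 0.961% lower). Over 2-fold changes were found for 45 of the higher and 75 of the lower genes. Errors on log2 fold changes are standard errors, with n = 3 libraries a group. They come from the fit of all 9 libraries, so they also draw on the spread of the primidone libraries. Ranges of the 3 libraries of each group did not overlap for any of the 233 genes called, nor for 26.1% of all genes tested, 12.7% higher and 13.4% lower. The median log2 fold change over all genes was 0.0002, and 7600 of 15186 were positive. An unadjusted p under 0.05 was found for 2699 genes (17.8%), and DESeq2 called 7.53%. Counts for a gene list, of members called, with such a p or with ranges apart, are to be read against these shares over all genes. The number of calls was sensitive to the libraries used. Without control 1 it was 9 higher and 13 lower, and without control 2 it was 21 and 54. Without control 3 it was 12 and 24, without tamoxifen 1 it was 18 and 24, without tamoxifen 2 it was 53 and 50, and without tamoxifen 3 it was 27 and 34. Of 89 named genes that passed, 17 stayed past the threshold whichever of the 9 libraries was omitted, among them Arntl, Per3, Tef, Wee1, Aspm, Psmc3ip, P4ha1, Spon2, F3, Arl14 and Rbm3. The largest adjusted p of the 89 was 0.166. None changed direction, which follows largely from their ranges being apart and is no separate support.

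**Figure D1:**
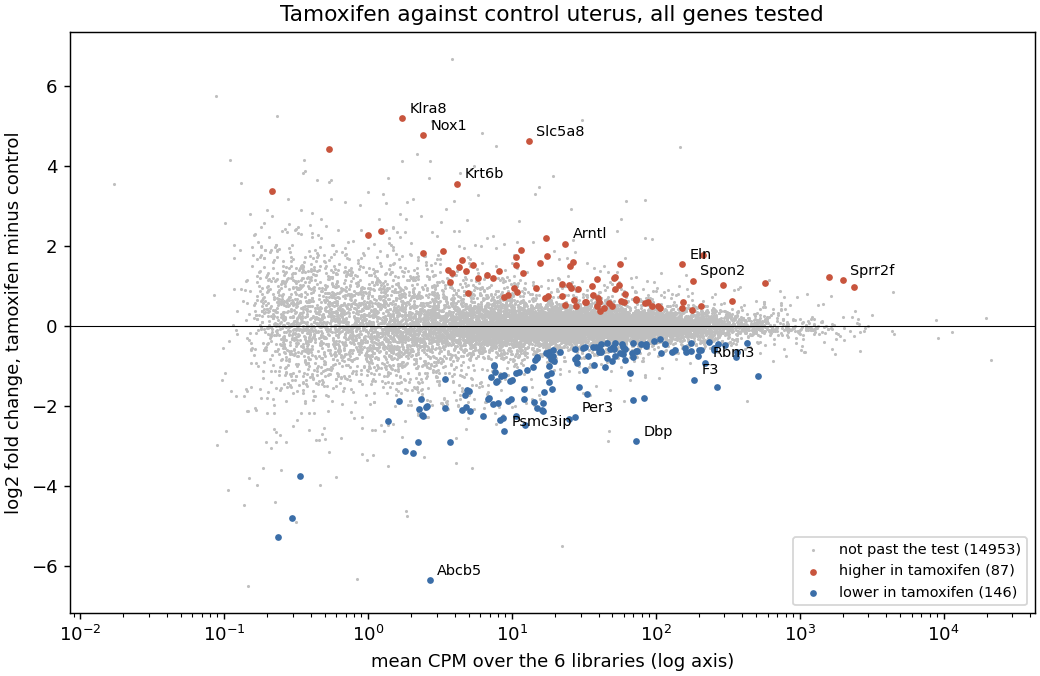
Log2 fold change (tamoxifen minus control) against the mean CPM over the 6 libraries on a log axis, 1 point a gene. Coloured points are the 87 genes higher and the 146 lower in tamoxifen libraries past the test. Arntl, Slc5a8 and Eln lie above 0 and Abcb5, Dbp and Per3 below it.

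The genes with the smallest p in each direction were few-fold changes with tight replicates. Arntl, the clock activator described with its group, had the smallest p among the genes that rose. Arl14, a small GTPase, stood at 27.6, 29 and 28.8 CPM in controls 1 to 3 and at 10.1, 9.18 and 9.25 CPM in tamoxifen libraries 1 to 3. Within each group its libraries lay close together, and it fell (log2 fold change -1.58 ± 0.11, adjusted p = 0.000248). Spon2, a secreted matrix protein that takes part in innate immunity, went from 118, 104 and 118 CPM to 225, 257 and 259 CPM, and rose (1.12 ± 0.10, adjusted p = 0.00151). F3 encodes tissue factor, the cell surface protein that starts coagulation. It fell from 269, 250 and 279 CPM to 99.9, 102 and 112 CPM (-1.34 ± 0.14, adjusted p = 0.00417). All tamoxifen values of F3 were below the lowest control value by more than the spread of either group. Pde4c, a phosphodiesterase that breaks down cyclic AMP, rose by 1.52 ± 0.18 (adjusted p = 0.00723).

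Larger changes were found in genes of low level in one of the groups. Slc5a8, which carries lactate and short-chain fatty acids into cells with sodium, stood at 0.941, 1.18 and 0.971 CPM in controls and at 23.2, 33.2 and 19 CPM in tamoxifen libraries. The groups were far apart and Slc5a8 rose (4.61 ± 0.66, adjusted p = 0.0236, and up to 0.108 with 1 library left out). Nox1, an NADPH oxidase that makes superoxide in epithelia and muscle, went from 0.0523, 0.214 and 0.243 CPM to 4.19, 3.42 and 6.36 CPM, with 2, 8 and 9 counts in the controls. It rose by 4.76 ± 0.92 on the log2 scale (adjusted p = 0.042, and up to 0.148 with 1 library left out). Abcb5, an ABC transporter, was nearly absent from the tamoxifen libraries. It had 189, 176 and 233 counts in controls and 1, 5 and 1 in tamoxifen libraries, and fell (-6.35 ± 0.87, adjusted p = 0.0126). Atp4a, the catalytic subunit of the gastric proton pump, fell from 4.18, 3.11 and 3.89 CPM to 0.128, 0.91 and 0.204 CPM (-3.17 ± 0.61). Tinag, a basement membrane protein, fell by 3.12 ± 0.50 and Gja3, a connexin, by 2.91 ± 0.56.

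The genes of the circadian clock together had a higher share of members past the test, 12 of 20, than any other of the gene lists examined. Over all genes the share was 1.53%. The 20 pool 3 lists, and lists were chosen with earlier results of these data known, so this ranking is no test. In the clock, the activators CLOCK and ARNTL (BMAL1) drive the Per, Cry, Nr1d and Dbp genes through E-boxes, the PER and CRY proteins inhibit that drive, and the NR1D proteins repress Arntl. The PAR bZIP factors DBP, TEF and HLF act on D-boxes, where NFIL3 represses. Of 20 tested members of the 3 clock lists described, Arntl and Nfil3 rose and 10 fell. These were Per3, Cry2, Nr1d2, Ciart, Bhlhe41, Dbp, Tef, Hlf, Usp2 and Wee1.

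Of the activators, Arntl stood at 8.57, 8.41 and 10.6 CPM in controls and at 35.4, 42.7 and 35.9 CPM in tamoxifen libraries. The lowest tamoxifen value was above the highest control value by over 20 CPM, and Arntl rose (2.05 ± 0.13, adjusted p = 0.000248). Its partner Clock, at 52.9, 51.8 and 56.1 against 59.4, 63.5 and 68.2 CPM, did not pass (0.25 ± 0.08, adjusted p = 0.135), nor did Npas2, a paralog of Clock (0.90 ± 0.26, adjusted p = 0.114). The ranges of both were nevertheless apart, with tamoxifen higher. Rora, a nuclear receptor that activates Arntl, had overlapping ranges (-0.51 ± 0.26).

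Among the 10 repressors, 5 fell and 0 rose, with a median log2 fold change of -1.20 over the list. Per3, a period gene, went from 46.7, 50.2 and 39.1 CPM to 8.81, 10.4 and 8.72 CPM and fell (-2.28 ± 0.20, adjusted p = 0.00151). Ciart, a repressor of the CLOCK and ARNTL pair, went from 4.65, 4.95 and 2.16 CPM to 0.308, 0.662 and 0.588 CPM and fell (-2.91 ± 0.47, adjusted p = 0.0236). Nr1d2, or Rev-erb beta, fell from 105, 117 and 103 CPM to 25.2, 38.9 and 26.5 CPM (-1.85 ± 0.32, adjusted p = 0.0363). For these genes every tamoxifen library lay below every control library. Bhlhe41 (-1.40 ± 0.22) and Cry2 (-0.93 ± 0.17) also fell. The period genes did not all do the same. Per2 went from 65.7, 57.5 and 58.4 CPM to 29, 21.3 and 40.4 CPM and just missed the threshold (-1.0 ± 0.21, adjusted p = 0.051). Per1 had overlapping ranges, at 39.5, 36.4 and 33.2 against 36, 20.2 and 39.5 CPM (-0.19 ± 0.25, adjusted p = 0.753). Nr1d1, or Rev-erb alpha, had a log2 fold change as large as Nr1d2 with wider spread (-1.88 ± 0.44, adjusted p = 0.0873). Cry1 was the repressor with a positive value (0.49 ± 0.19, adjusted p = 0.225), and the fit of the 6 libraries alone called 6 repressors lower and Cry1 higher. Bhlhe40 had overlapping ranges (-0.08 ± 0.10).

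All 6 members of the output list passed. Dbp stood at 136, 150 and 100 CPM in controls and at 16.5, 21.4 and 14.3 CPM in tamoxifen libraries, and fell (-2.89 ± 0.33, adjusted p = 0.00962). Tef fell from 134, 135 and 116 CPM to 33.1, 40.8 and 36.3 CPM (-1.81 ± 0.20, adjusted p = 0.00723), and Hlf from 22, 26.1 and 18.8 CPM to 7.73, 5.46 and 4.68 CPM (-1.91 ± 0.33, adjusted p = 0.0297). Thus the 3 activators at D-boxes were all lower, with no overlap. Nfil3, the repressor at the same element, moved the other way, from 8.49, 5.25 and 10.1 CPM to 22.4, 18.3 and 30.3 CPM (1.58 ± 0.26, adjusted p = 0.024). Wee1, a kinase that delays entry into mitosis and is driven by the clock, fell from 24.8, 23.6 and 24.9 CPM to 11.1, 10.1 and 10.1 CPM (-1.23 ± 0.11, adjusted p = 0.00191). Usp2, a clock-controlled ubiquitin protease, fell by 1.14 ± 0.21. Cipc, an inhibitor of CLOCK that is in none of the lists and was chosen after its values were seen, fell by 0.58 ± 0.10.

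**Figure D2:**
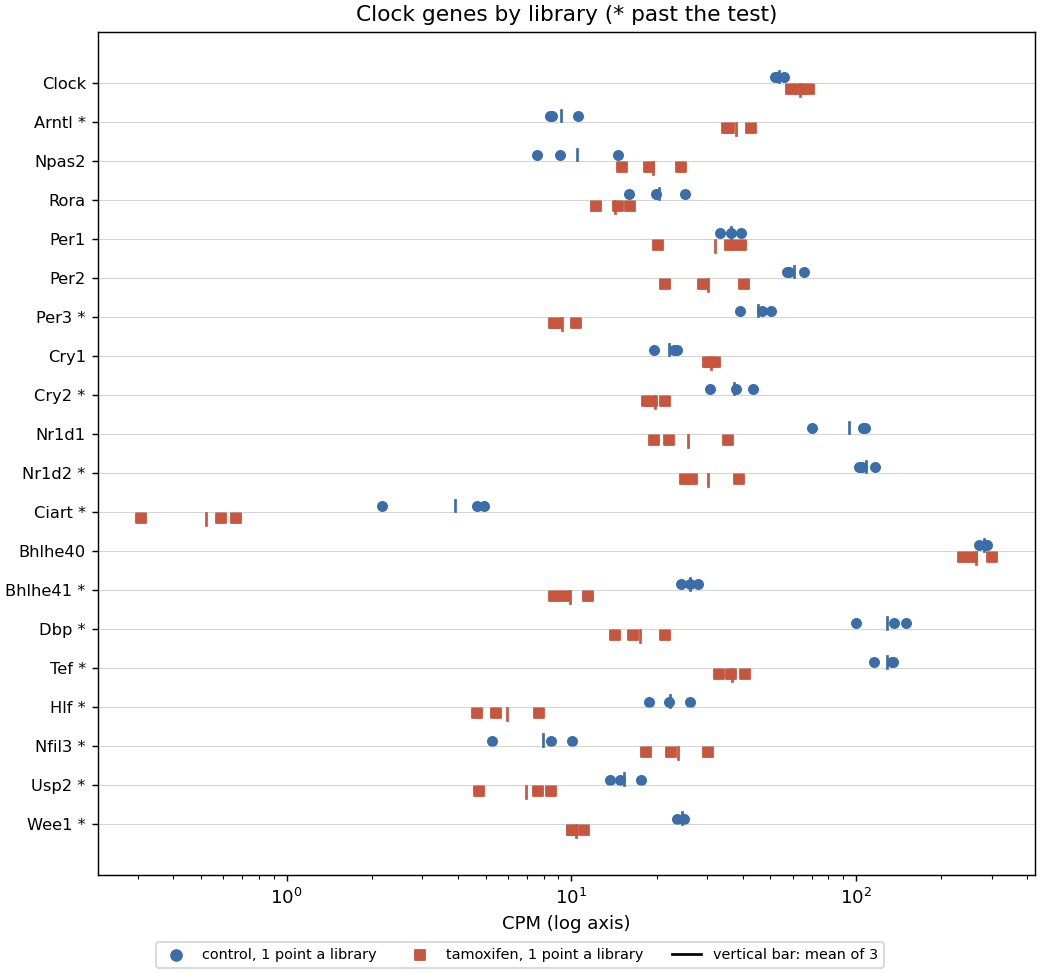
CPM on a log axis of the 20 clock genes described, 1 point a library (circles control, squares tamoxifen), with a bar at the mean of 3. A star marks the 12 past the test. Arntl and Nfil3 lie to the right of their control values and Per3, Ciart, Dbp, Tef and Hlf to the left.

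With 1 of the 6 libraries left out, between 1 and 3 repressors and between 2 and 4 output genes were lower, while Arntl, Per3, Tef and Wee1 passed each time. Levels of clock genes vary through the day, the hour of collection was not among the labels, and its part in these differences was not tested.

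The promoters of clock genes that fell are shown for the elements on which the activators act. Among the 17 of 20 clock genes found in RefSeq's table (GRCm38.p6, 250 bases before and 50 after the start, the first start of each gene), 6 held the E-box CACGTG or the D-box TTATGTAA on either strand, or 35.3%, against 10.1% of the 11958 tested genes found there. Taken singly, CACGTG was held by 5 of the 17 and by 9.5% of all, and TTATGTAA by 1 and by 0.594%. Shown are the 210 bases before the start of the repressors and output genes of smallest p that held a match, with CACGTG or TTATGTAA in capitals. Arntl and Dbp held neither element in that stretch. The positions are Per3 at chr4:151044666-151044875, minus strand, Bhlhe41 at chr6:145865421-145865630, minus strand, Ciart at chr3:95882229-95882438, minus strand and Tef at chr15:81802463-81802672, plus strand. Per3 held the D-box at -205 and -158 from the start, Ciart the E-box at -116, -58 and -44, Bhlhe41 at -153 and Tef at -127. A match describes these letters and is not a measured binding site. As the list is of known clock genes, the share with these elements follows from the genes listed. It is no result of the tamoxifen comparison.
Per3: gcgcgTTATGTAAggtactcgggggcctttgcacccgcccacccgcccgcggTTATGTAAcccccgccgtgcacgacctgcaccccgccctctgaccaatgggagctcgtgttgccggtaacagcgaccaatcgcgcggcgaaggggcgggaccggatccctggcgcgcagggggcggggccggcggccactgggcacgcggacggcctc
Bhlhe41: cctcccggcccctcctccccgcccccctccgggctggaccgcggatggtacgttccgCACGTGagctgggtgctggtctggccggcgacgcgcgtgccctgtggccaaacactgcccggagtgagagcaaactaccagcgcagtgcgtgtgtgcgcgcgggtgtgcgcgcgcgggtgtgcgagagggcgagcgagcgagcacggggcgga
Ciart: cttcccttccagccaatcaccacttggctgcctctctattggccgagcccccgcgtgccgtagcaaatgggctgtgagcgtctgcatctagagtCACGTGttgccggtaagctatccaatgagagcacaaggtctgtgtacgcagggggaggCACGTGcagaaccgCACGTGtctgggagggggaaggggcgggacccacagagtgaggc
Tef: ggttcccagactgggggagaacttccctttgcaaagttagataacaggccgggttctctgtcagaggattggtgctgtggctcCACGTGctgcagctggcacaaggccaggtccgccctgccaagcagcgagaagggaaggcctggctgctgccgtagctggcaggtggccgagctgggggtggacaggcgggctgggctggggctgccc

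Genes that act in mitosis formed the largest group of the genes that fell. They are made late in the cell cycle, bind the chromosomes, the spindle or the midbody, and are low in cells that do not divide. Of 38 tested members 14 fell (0.961% over all genes) and 0 rose. The log2 fold change was negative in all 38. The ranges of the groups did not overlap for 37 of them, beside 13.4% apart and lower over all genes. The median was -1.92, beside 0.0002 over all genes. The number past the test was 1 with any 1 of the 6 libraries left out, at medians of -2.02 to -1.79. With no use of the primidone libraries it was 36, with DESeq2 37 and with limma-voom 7.

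Aspm, a protein of the spindle poles, stood at 11.7, 14.9 and 16.5 CPM in controls and at 3.49, 2.26 and 2.96 CPM in tamoxifen libraries. The groups were clearly apart, and Aspm fell (-2.30 ± 0.28, adjusted p = 0.00856). Cenpa, the histone of the centromere, fell from 9.88, 11.4 and 10.8 CPM to 3.93, 2.73 and 2.35 CPM (-1.83 ± 0.30, adjusted p = 0.024). Racgap1, which acts in cytokinesis, fell from 22.8, 24.8 and 30.8 CPM to 7.4, 6.51 and 6.85 CPM (-1.92 ± 0.31, adjusted p = 0.024). Control 3 was the highest and control 1 the lowest control library for Aspm and Racgap1. Kif20a, a kinesin of the central spindle, fell by 2.06 ± 0.34, Cenpf, a kinetochore protein, by 2.47 ± 0.47, and Ccnb2, a mitotic cyclin, by 2.24 ± 0.43. Cdc20 (-2.11 ± 0.37) and Ube2c (-2.13 ± 0.39), which serve the ubiquitin ligase of anaphase, fell as well, as did Bub1b (-1.87 ± 0.34) and Mad2l1 (-0.77 ± 0.16) of the spindle checkpoint. The proliferation marker Mki67 had values of 58.7, 68.7 and 89.5 against 23.6, 24.2 and 23.7 CPM and did not pass (-1.60 ± 0.34, adjusted p = 0.0597). Top2a, the topoisomerase of dividing cells, stood at 48.6, 56.7 and 64.6 against 21.4, 20 and 18.6 CPM (-1.50 ± 0.43, adjusted p = 0.128). Incenp was the member whose ranges overlapped (-0.34 ± 0.19).

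The genes of DNA replication had smaller differences. Of 30 tested, 0 passed with edgeR, 4 had an unadjusted p under 0.05 (17.8% over all genes), and DESeq2 called 1 (7.53% over all genes). The median was -0.27, 27 were negative and the ranges of 11 did not overlap, all lower in tamoxifen libraries (13.4% over all genes). Pcna, the sliding clamp of the replication fork, stood at 64.2, 65.3 and 66.2 CPM in controls and at 65.8, 61.3 and 64.5 CPM in tamoxifen libraries, with overlapping ranges (-0.03 ± 0.12). Mcm2, a subunit of the replicative helicase, also overlapped, at 29.6, 29.3 and 37.5 against 27.2, 26.8 and 40.5 CPM. The largest difference was that of Tk1, thymidine kinase (-1.11 ± 0.33, adjusted p = 0.122). The difference between the mitosis and replication lists was not tested.

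In the list of recombination and repair genes, 2 of 17 fell and all 17 were negative, with a median of -0.92. Psmc3ip, a partner of the recombinases in homologous pairing, stood at 13.8, 15.3 and 16.4 CPM in controls and at 2.08, 2.32 and 2.94 CPM in tamoxifen libraries, and fell (-2.63 ± 0.27, adjusted p = 0.00358). The gap between the groups was wide, and Psmc3ip was the 1 member of this list that passed with any 1 of the 6 libraries left out. Neil3, a DNA glycosylase, fell from 1.7, 2.11 and 3.1 CPM to 0.616, 0.359 and 0.358 CPM (-2.37 ± 0.40, adjusted p = 0.024). Of the 12 cyclins of G1 phase and inhibitors of their kinases, 0 passed with edgeR. An unadjusted p under 0.05 was found for 5, and DESeq2 called 3, beside 17.8% and 7.53% over all genes. Cdkn2b, an inhibitor of CDK4 and CDK6, stood at 3.89, 3.11 and 4.86 against 11.2, 11 and 5.24 CPM (1.21 ± 0.29, adjusted p = 0.0762), and Cdkn1a, or p21, at 38.8, 38.4 and 33.1 against 49.1, 49.1 and 48.2 CPM (0.41 ± 0.10, adjusted p = 0.0758).

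**Figure D3:**
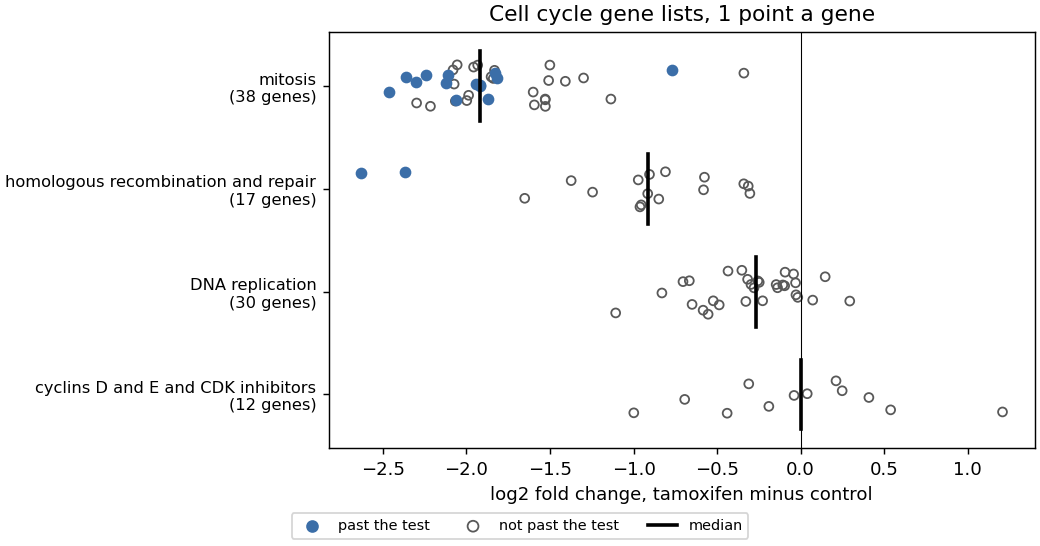
Log2 fold change of each tested gene of 4 cell cycle lists, 1 point a gene, filled where past the test, with a bar at the median. The medians are -1.92 for mitosis, -0.92 for recombination and repair, -0.27 for DNA replication and 0 for the G1 cyclins and kinase inhibitors.

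Late cell cycle genes are known to carry CCAAT boxes and, near the start, the CHR element, of which TTTGAA and TTCGAA are the usual forms. On either strand, CCAAT together with TTTGAA or TTCGAA was held by 24 of the 33 mitosis promoters in the RefSeq table (72.7%), by 4 of 25 of the replication list (16%) and by 5.95% of the 11958 tested genes. The promoters of the 5 mitosis genes of smallest p in the table are shown, from 120 bases before to 30 after the start, with the 3 motifs in capitals (ATTGG is CCAAT on the other strand). They lie at chr1:139454653-139454802, plus strand for Aspm, chr5:30666766-30666915, plus strand for Cenpa, chr15:99651627-99651776, minus strand for Racgap1, chr6:124830056-124830205, plus strand for Cdca3 and chr11:40733408-40733557, minus strand for Hmmr. TTTGAA began 7 bases into the transcript in Aspm, 17 in Cenpa, 6 in Racgap1 and 9 in Hmmr, while in Cdca3 it began at 31, past the stretch shown. The share of promoters with these motifs follows from the genes listed and is no result of the tamoxifen comparison.
Aspm: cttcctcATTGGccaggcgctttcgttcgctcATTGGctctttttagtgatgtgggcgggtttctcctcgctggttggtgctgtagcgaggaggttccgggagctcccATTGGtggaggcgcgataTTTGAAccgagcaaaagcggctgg
Cenpa: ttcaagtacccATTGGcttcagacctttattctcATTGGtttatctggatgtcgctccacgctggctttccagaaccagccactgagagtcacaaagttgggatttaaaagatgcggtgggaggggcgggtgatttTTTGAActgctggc
Racgap1: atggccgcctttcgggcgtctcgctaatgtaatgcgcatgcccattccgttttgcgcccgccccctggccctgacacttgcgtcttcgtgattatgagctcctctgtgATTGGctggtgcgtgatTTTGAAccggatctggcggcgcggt
Cdca3: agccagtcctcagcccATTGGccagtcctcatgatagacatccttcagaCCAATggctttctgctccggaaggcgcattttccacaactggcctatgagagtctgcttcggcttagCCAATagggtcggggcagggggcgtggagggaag
Hmmr: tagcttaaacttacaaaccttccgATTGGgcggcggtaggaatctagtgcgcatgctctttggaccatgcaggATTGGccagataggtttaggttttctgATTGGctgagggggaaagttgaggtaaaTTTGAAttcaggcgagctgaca

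Genes of glucose uptake, glycolysis and the response to low oxygen were mostly higher in tamoxifen libraries. Of 28 tested, 4 rose and 0 fell, 27 were positive, the ranges of 19 did not overlap, and the median was 0.48. Over all genes 0.573% rose and 26.1% had ranges that did not overlap. Hk2, the hexokinase that traps glucose in the cell, stood at 27.2, 25.6 and 33.2 CPM in controls and at 70.5, 101 and 81.3 CPM in tamoxifen libraries, and rose (1.56 ± 0.23, adjusted p = 0.0236). Slc2a1, the glucose transporter GLUT1, rose from 35.7, 38.5 and 33.4 CPM to 53.2, 89.5 and 61.1 CPM (0.92 ± 0.19, adjusted p = 0.0456). Both were highest in tamoxifen 2. The other members that rose were P4ha1 and P4ha2, subunits of the enzyme that hydroxylates collagen prolines. P4ha1 went from 38.2, 34.8 and 36.3 CPM to 72, 83.9 and 66.1 CPM (1.02 ± 0.13, adjusted p = 0.00902) and P4ha2 rose by 0.94 ± 0.15 (adjusted p = 0.0236).

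Several targets of hypoxia-inducible factors had 1 library far above the others. Egln3, an oxygen-sensing prolyl hydroxylase, stood at 25.2, 33.1 and 32.6 CPM in controls and at 77.9, 265 and 70.9 CPM in tamoxifen libraries (2.19 ± 0.70, adjusted p = 0.174). Slc16a3, a lactate exporter, stood at 2.53, 3.61 and 3.21 against 13.4, 37.4 and 6.98 CPM (2.62 ± 0.69, adjusted p = 0.101). Vegfa, the endothelial growth factor, stood at 53.1, 55.5 and 43 against 63.3, 147 and 68.2 CPM (0.88 ± 0.30). None of these passed, and in each tamoxifen 2 was the high library, though the ranges of the groups did not overlap. The factors themselves, Hif1a (0.12 ± 0.12) and Epas1 (0.25 ± 0.11), did not pass. Over the list, tamoxifen 2 lay at a median of 0.76 over the control mean on the log2 scale, beside 0.34 in tamoxifen 1 and 0.28 in tamoxifen 3. Without tamoxifen 2 the median log2 fold change of the list was 0.32 and 2 members passed, and without any other of the 6 libraries 1 passed, while DESeq2 called 13 and the fit of the 6 libraries alone 7. Gapdh stood at only 18 to 22.3 CPM, low beside Aldoa, an enzyme of the same pathway at 594 to 867 CPM. Whether this comes from how Gapdh reads were counted was not tested, so its level is uncertain.

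**Figure D4:**
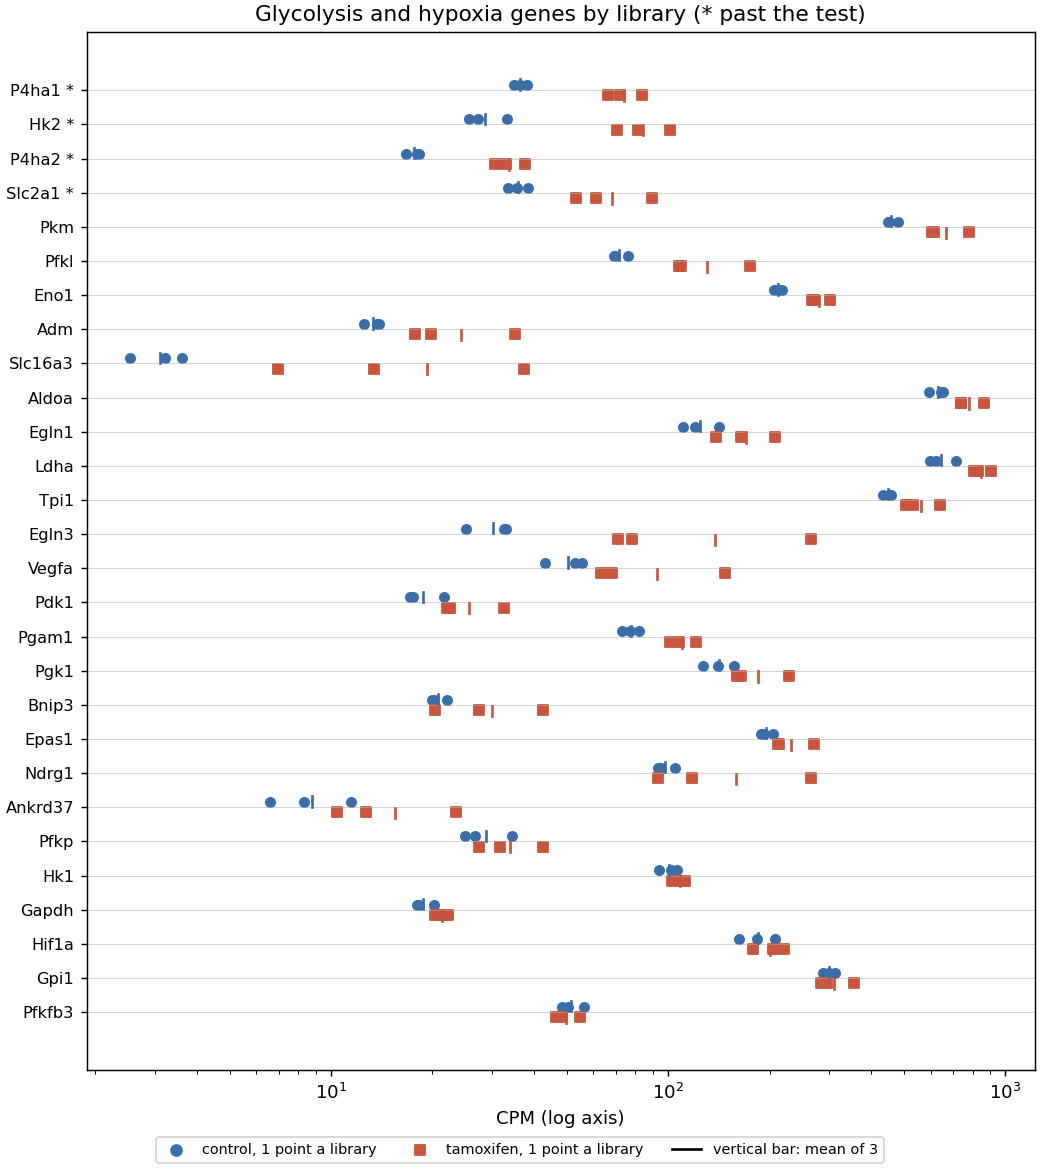
CPM on a log axis of the 28 glycolysis and hypoxia genes tested, ordered by p, 1 point a library (circles control, squares tamoxifen), with a bar at the mean of 3. A star marks Hk2, P4ha1, P4ha2 and Slc2a1, which passed. In Egln3, Slc16a3, Vegfa and Ndrg1 a single square, tamoxifen 2, lies to the right of the rest.

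Of the matrix, the elastic fibre list had 2 of 21 genes that rose. Eln, which encodes elastin, stood at 94, 66 and 76.2 CPM in controls and at 218, 193 and 273 CPM in tamoxifen libraries, and rose (1.53 ± 0.22, adjusted p = 0.0233). Fbn2, the fibrillin of developing microfibrils, rose from 15.5, 11.6 and 12.8 CPM to 33.5, 32 and 46.2 CPM (1.49 ± 0.20, adjusted p = 0.0117). For both, tamoxifen 3 was the highest library and the groups did not overlap. Without control 3 neither passed (adjusted p = 0.096 for Eln and 0.0677 for Fbn2), and without tamoxifen 2 both did. With control 1, control 2, tamoxifen 1 or tamoxifen 3 left out, Fbn2 passed and Eln did not. The cross-linking enzyme Lox (-0.05 ± 0.17) and the assembly protein Fbln5 (0.18 ± 0.13) overlapped between the groups, and the median of the list was 0.16, with 0.06 without control 2 and 0.26 without control 1. Of 20 collagens 1 rose, Col5a3, from 30, 23.1 and 19.5 CPM to 36.6, 56.3 and 52 CPM (1.00 ± 0.20, adjusted p = 0.0489). Col5a3 did not pass with any 1 of the 6 libraries left out (adjusted p of up to 0.155), with the replicate block or with limma-voom. The main fibrillar collagens Col1a1 (0.01 ± 0.17) and Col3a1 (0.28 ± 0.13) overlapped between the groups. Mgp, an inhibitor of calcification, fell from 445, 469 and 442 CPM to 301, 232 and 263 CPM (-0.77 ± 0.13, adjusted p = 0.024). Timp3, a matrix-bound inhibitor of metalloproteinases, fell by 0.45 ± 0.09 (adjusted p = 0.042), and Bmp6, a growth factor of the BMP family, by 0.88 ± 0.15 (adjusted p = 0.024).

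Estrogen-responsive genes did not move as a group. In the list of 27 tested, 1 rose and 1 fell, 14 were positive, and the median was 0.07, with a sign that depended on which of the 6 libraries was omitted (-0.09 to 0.01). Sprr2f, a small proline-rich protein of the estrogen-stimulated epithelium, stood at 1250, 1330 and 1180 CPM in controls and at 2720, 3110 and 2440 CPM in tamoxifen libraries. Sprr2f rose without overlap (1.14 ± 0.18, adjusted p = 0.0226), and its relative Sprr2a3 rose by 1.78 ± 0.27. Ctse, a protease of the endosome, fell from 39.8, 18.1 and 67.6 CPM to 10.6, 6.95 and 7.49 CPM (-2.32 ± 0.42, adjusted p = 0.0399). Clca1 stood at 28300, 23400 and 30300 against 16100, 15200 and 14400 CPM and did not pass (-0.84 ± 0.24, adjusted p = 0.113). Ltf, lactotransferrin, and C3, both estrogen-induced and abundant, overlapped between the groups (0.15 ± 0.18 and 0.19 ± 0.17). Among 15 steroid receptor genes 0 passed with edgeR, 4 had an unadjusted p under 0.05, beside 17.8% over all genes, and DESeq2 called 2, beside 7.53%. Esr1, estrogen receptor alpha, stood at 349, 365 and 348 against 276, 308 and 292 CPM (-0.28 ± 0.09, adjusted p = 0.13), and Pgr, the progesterone receptor, at 301, 293 and 302 against 237, 277 and 282 CPM (-0.17 ± 0.12, adjusted p = 0.488).

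Of the list of cytokines and chemokines 1 of 27 rose, Ccl28. Of the B and plasma cell list 2 of 10 rose, Mzb1 and Pigr, of which Pigr is a receptor of the epithelium. With 1 of the 6 libraries left out, 0 or 1 of the latter list passed. Ccl28, an epithelial chemokine that draws plasma cells of the IgA class, stood at 186, 201 and 193 CPM in controls and at 341, 385 and 442 CPM in tamoxifen libraries (1.01 ± 0.13, adjusted p = 0.00902). Pigr, the receptor that carries IgA across the epithelium, rose from 1610, 1650 and 1570 CPM to 3040, 3290 and 3060 CPM (0.96 ± 0.17, adjusted p = 0.0314). Both groups were tight and apart in these genes. Mzb1, a chaperone of antibody assembly, rose by 1.03 ± 0.20 (adjusted p = 0.042). Ccr10, the receptor of Ccl28, was looked up after these values were seen and rose from 3.08, 1.85 and 1.97 CPM to 6.57, 7.17 and 5.29 CPM (1.46 ± 0.26, adjusted p = 0.0316). Jchain, which joins IgA dimers, overlapped between the groups (-0.02 ± 0.19), as did the B cell gene Cd79a (0.13 ± 0.22). Genes of the endoplasmic reticulum that fold secreted proteins had 0 of 20 past the test with edgeR. Of the 20, 15 had an unadjusted p under 0.05 (17.8% over all genes) and 16 had ranges apart and higher (12.7% over all genes). Their median was 0.44, with 19 positive. Hspa5, the main chaperone of the reticulum, stood at 497, 451 and 617 against 1050, 832 and 965 CPM (0.86 ± 0.26, adjusted p = 0.129). Without the primidone libraries 10 of the 20 passed, with DESeq2 8 and with limma-voom 0.

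Of leukocyte markers, 3 of 29 tested for NK and T cells rose. Il2rb, a chain of the interleukin 2 and 15 receptors, stood at 11.1, 10.9 and 8.12 CPM in controls and at 19.7, 22.8 and 15.1 CPM in tamoxifen libraries (0.94 ± 0.17, adjusted p = 0.0324). Klra8, an NK cell lectin receptor, had 2, 4 and 4 counts in controls and 236, 127 and 20 in tamoxifen libraries (5.19 ± 0.95, adjusted p = 0.039), and Klra1 had 1, 3 and 1 against 59, 49 and 8 (4.43 ± 0.92, adjusted p = 0.0463). Tamoxifen 3 was much the lowest of its group in both Klra genes. The list's summed level was 89.9 to 107 CPM in controls and 101 to 140 CPM in tamoxifen libraries, and its median log2 fold change was 0.89. The number that passed was 0 to 3 with 1 library left out and 0 with limma-voom. DESeq2 called 9 higher and 1 lower, and 13 had an unadjusted p under 0.05, beside 7.53% and 17.8% over all genes. Of the defining genes, Gzmd, Gzme and Gzmf, granzymes of uterine NK cells, had 0 to 6 counts a library. Ncr1, which marks NK cells, did not pass (0.97 ± 0.28, adjusted p = 0.107), and the granzyme Gzmb overlapped (-0.11 ± 0.24). Neutrophil markers had 0 of 13 past the test with edgeR, 4 with an unadjusted p under 0.05 and 2 with DESeq2, beside 17.8% and 7.53% over all genes. Their median was 1.31, or 0.77 without tamoxifen 2, and they summed to 36.7 to 75.1 CPM in controls and 95.3 to 162 CPM in tamoxifen libraries. S100a9, a neutrophil protein, stood at 0.131, 0.321 and 0.675 against 4.49, 8.61 and 1.69 CPM. Of 20 macrophage markers 0 passed with edgeR, 5 had an unadjusted p under 0.05 and DESeq2 called 2, near the shares over all genes. Their median was 0.42, or 0.23 without tamoxifen 1, with sums of 1770 to 1970 CPM against 2060 to 2590 CPM. Adgre1, or F4/80, stood at 36, 37.4 and 31.2 against 84.2, 53.7 and 58.3 CPM (0.91 ± 0.24, adjusted p = 0.102). Red blood cell markers were also mostly higher in tamoxifen libraries, though not in the same order of libraries. Of 5 tested 0 passed with edgeR, 3 had an unadjusted p under 0.05 and DESeq2 called 2, beside 17.8% and 7.53% over all genes. All 5 were positive, 4 had higher ranges (12.7% over all genes), and the median was 1.33, with 1.88 without control 1. They summed to 67.5 to 223 CPM in controls and 231 to 334 CPM in tamoxifen libraries, with Hbb-bs, a hemoglobin chain, at 67.3, 74.6 and 43.3 against 160, 112 and 193 CPM. Within the tamoxifen group Hbb-bs was lowest in tamoxifen 2, where S100a9 was highest. Hba-a1, another chain, overlapped, at 139, 31.2 and 17.7 against 84.9, 93.8 and 108 CPM. Hba-a2, a further chain, had 0 counts in control 3. The part of blood content in the leukocyte values was not tested. C5ar1, a receptor of the complement fragment C5a found on myeloid cells, rose by 1.19 ± 0.25 (adjusted p = 0.0489). It did not pass with any 1 of the 6 libraries left out, with the replicate block or with limma-voom.

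Of 9 tested mast cell markers 2 fell, both proteases, while 6 were negative and 3 positive. Mcpt4, a chymase, stood at 2.98, 4.28 and 4.94 CPM in controls and at 0.873, 1.05 and 1.05 CPM in tamoxifen libraries, and fell (-2.04 ± 0.33, adjusted p = 0.0236). Tpsb2, a tryptase, fell from 5.17, 5.57 and 5.94 CPM to 1.41, 1.32 and 1.3 CPM (-2.04 ± 0.39, adjusted p = 0.0351). Both had values in the tamoxifen libraries that lay close together and well below the controls. Cma1, Cpa3 and Mrgprb2, also typical of connective tissue mast cells, had lower ranges without passing (-1.58 ± 0.48, -1.14 ± 0.44 and -3.28 ± 1.03). The median of the list was -1.14, yet neither protease passed with any 1 of the 6 libraries left out (adjusted p of up to 0.096 for Mcpt4 and 0.114 for Tpsb2). The list summed to 213 to 232 CPM in controls and 189 to 207 CPM in tamoxifen libraries, and Mcpt1 and Mcpt8 had 0 counts in all 6. The fit of the 6 libraries alone called 2 members lower and 1 higher. Kit, the receptor of stem cell factor, overlapped (0.24 ± 0.32). Hdc makes histamine and is also expressed by uterine epithelium and myeloid cells. It stood at 9.22, 10.3 and 10.9 against 28.8, 32.1 and 35.7 CPM, with ranges apart, and did not pass (1.67 ± 0.76, adjusted p = 0.31). The error of Hdc also draws on the spread of the primidone libraries.

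Some markers of the liver and the mesothelium rose as well, and liver and fat markers were highest in tamoxifen 3. Of 30 transcripts made chiefly by the liver, 5 rose, 29 were positive and the median was 1.00. Alb, serum albumin, stood at 32.3, 30.8 and 30.7 CPM in controls and at 62.1, 56.1 and 101 CPM in tamoxifen libraries (1.23 ± 0.19, adjusted p = 0.0236), and Ttr, Apoa1, Ahsg and Serpina1e also rose. The summed level of this list was 204 to 275 CPM in controls and 414, 296 and 605 CPM in tamoxifen 1 to 3. Without tamoxifen 3 the median was 0.48 and 1 member passed, without tamoxifen 1 it was 1.21 and 1, without tamoxifen 2 it was 1.27 and 7, and without any 1 control 0 passed. DESeq2 called 14 of the 30 and limma-voom 1. Adipocyte markers had 0 of 15 past the test with edgeR. An unadjusted p under 0.05 was found for 7, and DESeq2 called 3, beside 17.8% and 7.53% over all genes. Their summed levels were 196 to 201 CPM in controls and 303, 226 and 691 CPM in tamoxifen 1 to 3. Adipoq, a hormone of fat cells, stood at 1.83, 3.11 and 2.83 against 7.24, 3.2 and 26.3 CPM, and the list median of 1.60 was 0.55 without tamoxifen 3. Msln, which marks the mesothelium that covers the uterus, rose from 5.7, 3.75 and 5.15 CPM to 25.9, 8.69 and 20 CPM (1.90 ± 0.35, adjusted p = 0.0399). It was 1 of 12 mesothelial markers past the test, and all 12 were positive, with sums of 2060 to 2190 CPM in controls and 2130 to 2500 CPM in tamoxifen libraries. Without tamoxifen 2, 5 of the 12 passed, and without any other of the 6 libraries 0. Among the liver, fat and mesothelial markers, Ucp1 of brown fat was the 1 with 0 counts in any of the 6 libraries, in all 3 controls and tamoxifen 2. Their part in the other results was not tested.

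**Figure D5:**
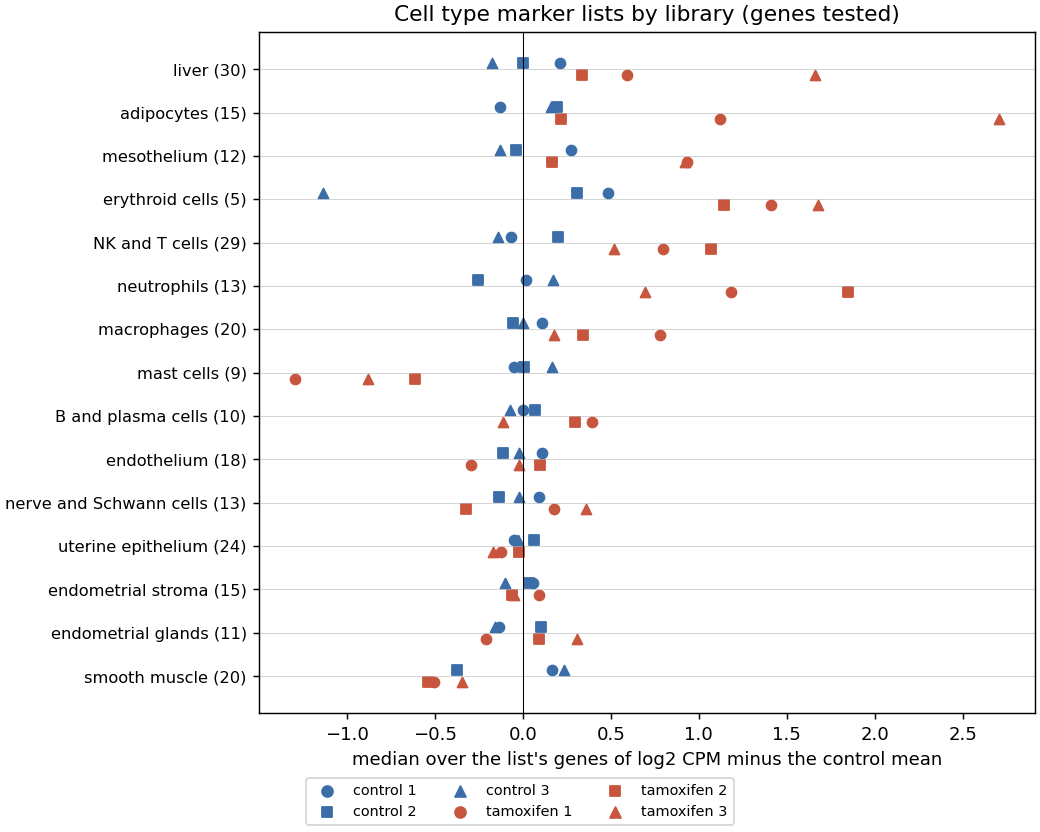
Median over the tested genes of each marker list (number in brackets) of log2 CPM minus the control mean, 1 point a library, with controls in blue and tamoxifen in red. Tamoxifen 3 lies to the right for liver (1.66) and adipocytes (2.71), tamoxifen 2 for neutrophils (1.85), and control 2 lies with the tamoxifen libraries for smooth muscle (-0.37).

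Smooth muscle genes, which make up the contractile myometrium, had 0 of 20 past the test with edgeR, 12 with an unadjusted p under 0.05 (17.8% over all genes), 19 negative and a median of -0.42. DESeq2 called 9 of them and limma-voom 0. Actg2, the smooth muscle gamma actin, stood at 887, 562 and 1070 CPM in controls and at 451, 388 and 533 CPM in tamoxifen libraries (-0.88 ± 0.22, adjusted p = 0.0842). Myl9, a myosin light chain, stood at 1440, 1070 and 1510 against 852, 761 and 943 CPM (-0.65 ± 0.15, adjusted p = 0.0657). Control 2 was the low control in both. The summed level of the list was 17300, 11800 and 18400 CPM in controls and 10500, 10000 and 11900 CPM in tamoxifen libraries, so that control 2 lay within the tamoxifen range. Without control 2, 5 members fell and the median was -0.57.

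The channels named in the study's title, of the transient receptor potential (TRP) family, did not differ past the test. These are cation channels that open to heat, stretch, lipids and intracellular signals. Of 28 listed, 20 were tested and 0 passed with edgeR, with any library left out, with DESeq2 or with limma-voom. Trpm7 was the 1 with an unadjusted p under 0.05, and 4 of the 20 had ranges that did not overlap (Trpm7, Trpc1 and Trpm3 lower, Trpm2 higher). Over all genes tested, 17.8% had such a p and 26.1% had ranges that did not overlap. Per length, as the authors' FPKM, Trpv6, an epithelial calcium channel, was the most abundant in each group, at 79, 77.1 and 106 in controls and 87.9, 112 and 71.5 in tamoxifen libraries. Trpm4, a calcium-activated sodium channel, followed at 19, 20.9 and 15.7 against 16.7, 17.1 and 14.7. Trpm7, a channel with a kinase domain, stood at 8.51, 9.54 and 8.4 against 7.36, 7.79 and 6.88 FPKM, the lowest p of the family (log2 fold change in CPM -0.27 ± 0.08, adjusted p = 0.139). For Trpm3, a channel that primidone blocks, the levels in CPM were 0.627, 0.696 and 0.863 in controls and 0.539, 0.579 and 0.102 in tamoxifen libraries (-0.84 ± 0.67, adjusted p = 0.554), near the limit of detection.

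Other list members that passed were few. The cold-inducible RNA-binding proteins Rbm3 and Cirbp fell together, Rbm3 from 289, 282 and 292 CPM to 135, 155 and 166 CPM (-0.92 ± 0.10, adjusted p = 0.00443) and Cirbp by 0.85 ± 0.14 (adjusted p = 0.0236). They were 2 of 16 genes past the test in a list with the heat shock proteins, of which 0 passed. Of these, Hsph1 stood at 39.9, 34.6 and 47.8 against 107, 73.3 and 99.7 CPM (1.19 ± 0.38, adjusted p = 0.155). Ranges were also apart and higher for Hspa5, and they overlapped for the others, such as Hspa1a (0.11 ± 0.21) and Hsp90ab1 (-0.05 ± 0.13). Cpt1a, which admits fatty acids to mitochondria, fell by 0.61 ± 0.09 (adjusted p = 0.014), and Mt2, a metallothionein, by 1.83 ± 0.36 (adjusted p = 0.0432). Grb10, an imprinted adaptor that restrains insulin and IGF signalling, rose from 69, 76.8 and 65.5 CPM to 107, 109 and 106 CPM (0.61 ± 0.08, adjusted p = 0.00903). Crabp1, a binding protein for retinoic acid, rose from 6.11, 9.48 and 3.21 CPM to 24.6, 23.8 and 37.1 CPM (2.18 ± 0.42, adjusted p = 0.0461). Crabp1 did not pass with any 1 of the 6 libraries left out, with the replicate block or with limma-voom. Tcf7, a transcription factor of the Wnt pathway, fell by 1.19 ± 0.24 (adjusted p = 0.048). Krt6b, a keratin of stratified epithelia, had 42, 24 and 8 counts in controls and 291, 257 and 331 in tamoxifen libraries and rose (3.55 ± 0.60, adjusted p = 0.0266), as did Asprv1, a protease of the epidermis (1.88 ± 0.34). Neither Krt6b nor Asprv1 passed with any 1 of the 6 libraries left out. The basal keratins Krt5 and Krt14 and the squamous regulator Trp63 overlapped between the groups.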

How the data were processed

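The submitters' processing notes name R 3.2.0, HTSeq, HISAT2, DESeq2 and GRCm39. Annotation and strand setting: not given in the sources used here. For 18094 gene symbols the authors deposited raw whole-number counts. FPKM, scaled for depth and length, were also deposited, used here to rank channels and in 2 alternatives (log2 of FPKM plus 1 or 0.1).

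Counts of all 9 libraries were fitted with edgeR 4.0.16 in R 4.3.3 (TMM, default low-count filter by group, robust quasi-likelihood, 1 coefficient a group, two-sided), adjusted by Benjamini-Hochberg over 15186 genes at 0.05. The standard error is the absolute log2 fold change over the square root of F, rough at few counts. CPM use TMM-scaled library sizes. Pairs of replicates differed by a chi-square per degree of freedom of 19.81 to 60.18, so none was a repeat.

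Named genes were, for each direction, the 15 with the largest change and the 10 with the smallest p (at least 2 CPM in the higher group, ranges apart, no predicted or clone name), list members that passed, up to 4 of smallest p a list, and all TRP and clock genes. Others are list members given as examples after their values were seen. Members and lists were chosen with earlier results of these data known. Some genes withheld for evaluation are not reported here.

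On simulated counts (15041 genes) 61% of 100 genes changed 2-fold and 90.9% of 99 changed 4-fold were recovered, with 5.62% of calls false. Alternatives were DESeq2 1.42.0, limma 3.58.1 (voom, and on log2 FPKM), the 6 libraries alone, upper-quartile scaling, other filters, a replicate block and each library left out.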

Additional observations from a re-analysis of the deposited data

How the results depend on the processing

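Counts of genes higher and lower, 87 and 146, became 226 and 320 with the 6 libraries alone, 540 and 603 with DESeq2, 51 and 122 with limma-voom, and 168 and 271 without tamoxifen+primidone 1. With other single libraries left out they ran from 9 to 117 higher and from 13 to 187 lower. They were 83 and 144 with upper-quartile factors, 96 and 161 without a low-count filter, 102 and 148 with a stricter one, 67 and 144 on log2(FPKM + 1) and 83 and 137 on log2(FPKM + 0.1). Where a group is left with 2 libraries, part of the loss follows from fewer samples; the rest was not tested.

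Replicate numbers are shared by the groups. Deviations of same-numbered control and tamoxifen libraries correlated at -0.035, 0.091 and 0.03, and those of the other pairs at -0.082 to 0.066. Whether same-numbered libraries shared a batch was not tested. With the replicate block 124 genes were higher and 193 lower, and 75 of the 89 named genes passed. Of those 89, 85 of 88 tested passed with the 6 libraries alone, 89 with DESeq2 and 59 with limma-voom. None changed direction under any alternative, which is no separate support, as the ranges of all called genes were apart. Of 58 lists, 14 had a median that changed sign under an alternative, and 44 kept their sign. Among the 14, that of endometrial gland genes was -0.28 and moved to 0.46 without a low-count filter and 0.47 without control 2. Genes of few counts (Klra8, Klra1, Nox1, Abcb5 in 1 group) have the least certain sizes of change.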

Other observations

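Genes outside the lists, chosen here after their values were seen, added to the groups above. Further genes of the spindle, kinetochore and condensed chromosome fell, among them Spc24 of the outer kinetochore (-2.12 ± 0.38), Spag5 (-2.10 ± 0.36), Dlgap5 (-2.03 ± 0.36), Cep55 of the midbody (-1.62 ± 0.30), the condensin subunits Smc2 (-1.53 ± 0.24) and Ncapd2 (-1.01 ± 0.20), and the securin Pttg1 (-1.01 ± 0.20). Smc2 stood at 34.6, 38.2 and 58.5 CPM in controls and at 17.4, 13.9 and 14.1 CPM in tamoxifen libraries. Beside Rbm3 and Cirbp, the RNA-binding protein Hnrnpa1 fell (-0.48 ± 0.08), as did the chromatin proteins Hmgn2 (-0.54 ± 0.09) and H2az2 (-0.46 ± 0.09).

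Among genes that rose, Tfrc, the transferrin receptor that takes up iron, went from 28.2, 27 and 37.8 CPM to 64.5, 77.5 and 71.5 CPM (1.20 ± 0.19, edgeR adjusted p = 0.0236). Dio2, which activates thyroid hormone, went from 361, 436 and 318 CPM to 582, 943 and 812 CPM (1.07 ± 0.17). Aldoc, an aldolase that is in no list, rose by 1.17 ± 0.17, and Cxcr4, a chemokine receptor, by 0.85 ± 0.17. Plet1, an epithelial surface protein, went from 858, 1170 and 851 CPM to 1890, 2810 and 1990 CPM (1.21 ± 0.20). Unlike the genes above, Ovgp1, the oviduct glycoprotein, belonged to a list, that of ovary and oviduct markers. It did not pass, with 1.18, 36.5 and 13.4 against 267, 61.9 and 124 CPM (3.15 ± 1.04, adjusted p = 0.181). Tppp3 of that list just missed the threshold (0.90 ± 0.19, adjusted p = 0.0505). Of its 8 tested members 0 passed with edgeR. With DESeq2 6 were positive and 2 negative, and 2 were called higher, beside 7.53% called over all genes.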
